A study of Mus musculus with 4 samples.

Results

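The genes for the transcription factors Insm1, Neurod1 and Foxa2 were examined for sites of the same 3 factors, mapped by chromatin immunoprecipitation and sequencing (ChIP-seq) in beta cells of the mouse. Sites were taken when their summit fell in 1 of 3 windows on chromosome 2 of the mm9 genome: 145950000 to 146150000 around Insm1, 79190000 to 79400000 around Neurod1, and 147750000 to 147970000 around Foxa2. The windows held 99 of the 60439 deposited sites, namely 27 of 17453 Insm1 sites, 30 of 14607 Neurod1 sites and 42 of 28379 Foxa2 sites. They formed 55 of the 39412 regions obtained by merging sites of the 3 lists that overlapped by at least 1 bp. No measured value entered the choice of windows, but they were set with earlier results of these data known, and no value below carries a test.

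The cells were a line started from islets of RIP1-Tag2 mice aged 6 weeks, whose beta cells carry the SV40 T antigen under the rat insulin promoter, on a mixed C57BL/6, 129/ola and CBA/J background. No treatment is named in the labels. The cells were at passages 10 to 15, in medium with 25 mmol/l glucose. All 4 samples share this line. Each was pulled down with 1 antibody, against Insm1, Neurod1 or Foxa2 or with control IgG, so that each group holds 1 sample, and the IgG sample was not analysed here. No spread between replicates can be had: intervals cover counting error alone, sites are not replicates, and whether a site would recur in a second library was not tested. How many reads support a site cannot be seen in the lists. The authors' whole-number score of a site has no stated definition and served only to rank sites within their own list.

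Insm1 belongs to the zinc finger factors and is made in neurons and endocrine cells. It is joined here by Neurod1, a basic helix-loop-helix factor that recognises E-boxes, and Foxa2, a forkhead factor able to bind closed chromatin. All 3 are needed for the development or function of beta cells. Factors that specify a cell type often bind near their own genes and near each other's, an arrangement known as auto- and cross-regulation. Binding near a gene does not by itself show that the gene is a target, and enhancers can act over long distances.

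Gene positions were taken as 146.05 Mb for Insm1, 79.29 Mb for Neurod1 and 147.87 Mb for Foxa2 on mm9, which is exact only to 5 kb either way. Distances below run from these positions, with a minus sign for lower coordinates, and cannot place a site in a promoter, exon or intron. The windows reach 100 kb below and above the Insm1 position, 100 kb below and 110 kb above that of Neurod1, and 120 kb below and 100 kb above that of Foxa2. In the RefSeq gene table of GRCm38, used for names and order alone, the protein-coding genes on either side are Cfap61, named for cilia and flagella, and Ralgapa2 for Insm1. They are Cerkl, a relative of ceramide kinase, and Itprid2 for Neurod1. For Foxa2 they are Pax1, a paired box factor, and the somatostatin receptor gene Sstr4, with the homeodomain factor gene Nkx2-2 beyond Pax1 and the long noncoding RNA gene 9030622O22Rik directly before Foxa2.

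The promoter sequences are shown because the genes' own starts are where factors acting on their own genes are often sought. RefSeq's promoter table for GRCm38 held 2 of the 3 genes, Neurod1 and Foxa2. Each run gives the 250 bases before the start of transcription on the minus strand, the most upstream of 3 starts for Foxa2, with matches to the motifs searched in capitals. They span chr2:79456637-79456886 (Neurod1) and chr2:148046970-148047219 (Foxa2) in GRCm38, which cannot be set against the mm9 positions of the sites.
Neurod1: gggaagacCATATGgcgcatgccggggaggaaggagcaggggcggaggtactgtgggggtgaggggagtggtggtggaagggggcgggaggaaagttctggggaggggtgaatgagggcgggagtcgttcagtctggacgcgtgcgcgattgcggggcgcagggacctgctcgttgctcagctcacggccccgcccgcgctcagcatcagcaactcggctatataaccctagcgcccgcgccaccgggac
Foxa2: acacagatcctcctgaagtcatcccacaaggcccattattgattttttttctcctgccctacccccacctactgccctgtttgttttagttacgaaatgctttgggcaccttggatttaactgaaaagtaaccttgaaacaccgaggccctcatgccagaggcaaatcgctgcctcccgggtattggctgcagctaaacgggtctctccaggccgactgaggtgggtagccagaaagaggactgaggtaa

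The motifs, searched on both strands, were the E-box CANNTG and its form CAGNTG, the forkhead letters TGTTTAC as well as TATTTAC and also TGTTTGC, and further GGGGGCA and GGGGTCA for Insm1. CAGNTG matches are also CANNTG matches. The Neurod1 promoter held 1 match, the E-box CATATG starting 242 bases before the start, and the Foxa2 promoter held none. An E-box CANNTG is common, present in 66.2% of the 32851 promoters in the table over the same 250 bases, and CAGNTG was present in 44.8%. TGTTTAC was present in 3.2%, TATTTAC in 2.7%, TGTTTGC in 4.3%, GGGGGCA in 4.8% and GGGGTCA in 3.5%. The bases of the Neurod1 promoter were G or C in 67.6% of positions and those of the Foxa2 promoter in 50.8%, compared with a median of 52.4% over the table.

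Every one of the 3 loci held sites of every one of the 3 factors. This is not rare in stretches so long: 67.7% of 200 kb tiles of the genome held no region with all 3 factors, and the remaining tiles did. The share of tiles with sites of all 3 factors, overlapping or not, was not counted. The Foxa2 and Insm1 loci were among the most densely occupied stretches of the genome. The Insm1 window held 9 Insm1, 11 Neurod1 and 16 Foxa2 sites. The Neurod1 window held 7 Insm1, 8 Neurod1 and 9 Foxa2 sites, and the Foxa2 window held 11, 11 and 17. The Neurod1 locus was thus the most sparsely occupied of the 3 for each factor.

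To read these counts against each list, the genome was cut into tiles of the window's length from the first to the last site of each chromosome. In 200 kb tiles the mean was 1.36 Insm1, 1.14 Neurod1 and 2.21 Foxa2 sites. At least as many sites as in the Insm1 window were found in 0.428% of 12852 tiles for Insm1, 0.0856% for Neurod1 and 0.0545% for Foxa2. The site density there was 6.63-fold the list's mean for Insm1, 9.68-fold for Neurod1 and 7.25-fold for Foxa2.

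The Foxa2 window also stood high. Its counts were reached in 0.171% of 11679 tiles of 220 kb for Insm1, 0.120% for Neurod1 and 0.0257% for Foxa2, the last being 3 tiles, and the densities were 7.37-fold, 8.8-fold and 7-fold the means. For the Neurod1 window the shares of 12236 tiles of 210 kb were 2.04% for Insm1, 0.727% for Neurod1 and 2.60% for Foxa2, with densities 4.91-fold, 6.71-fold and 3.88-fold the means. Sites were unevenly spread in every list: 44.7% of the 200 kb tiles held no Insm1 site, 50.8% no Neurod1 site and 28.5% no Foxa2 site.

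**Figure D1:**
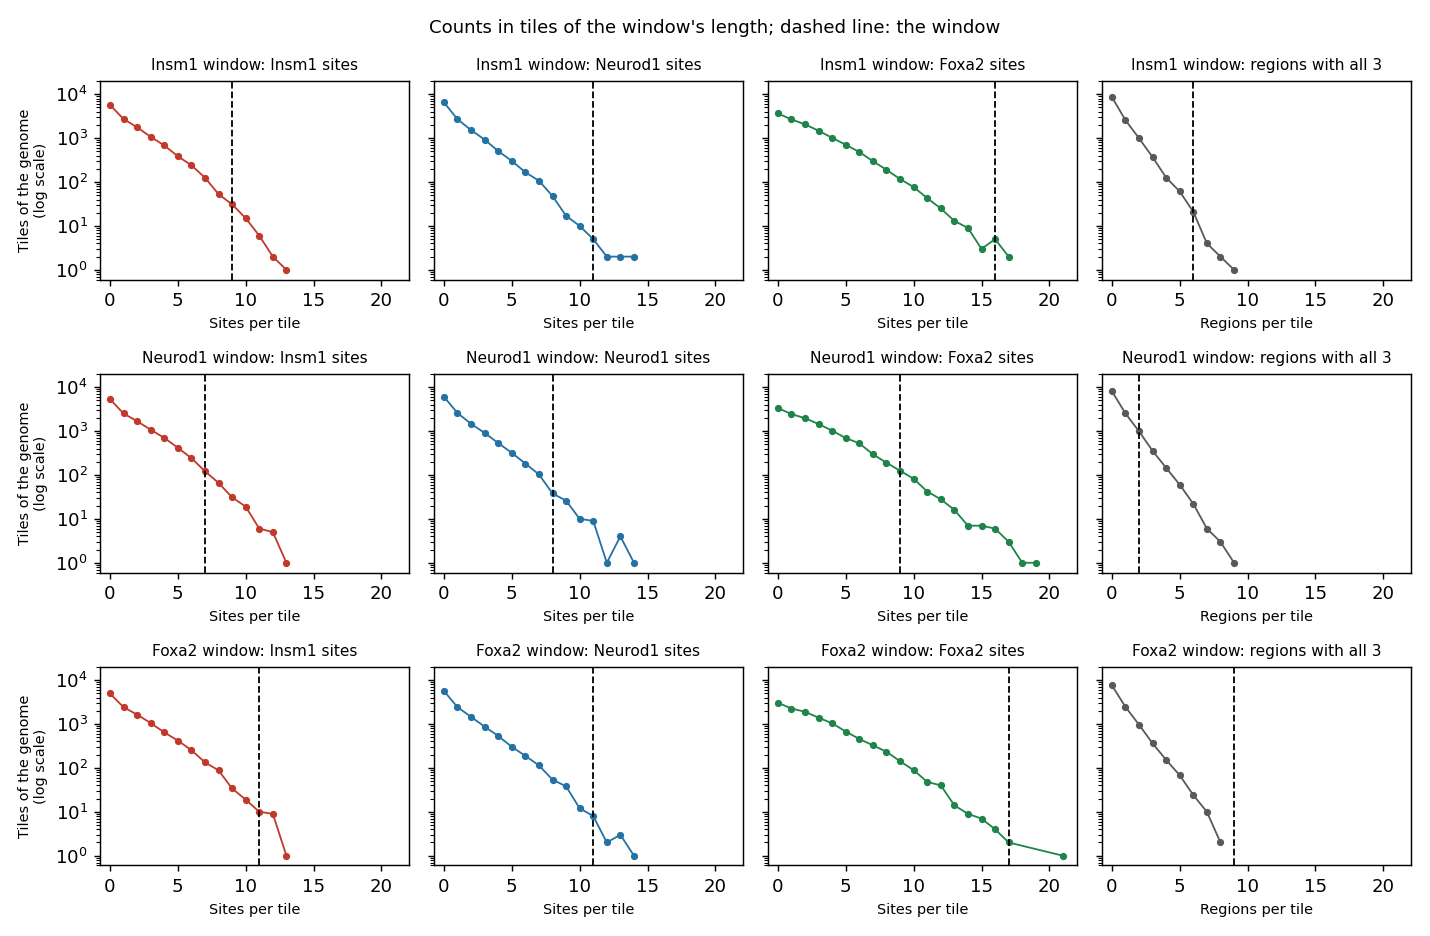
Number of genome tiles (vertical axis, log scale) that hold a given number of sites or of regions with all 3 factors (horizontal axis), with tiles as long as the window named in each title. The dashed line marks the count in the window itself, which at most 2.60% of tiles reach, except for regions with all 3 factors at the Neurod1 locus, whose count of 2 is reached by 12.9% of tiles.

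Regions with sites of all 3 factors were most numerous at the Foxa2 locus. There were 9 at the Foxa2 locus, 6 at the Insm1 locus and 2 at the Neurod1 locus, which makes 17 of 55 regions or 30.9% (95% Clopper-Pearson interval 19.1 to 44.8%), against 16.9% of regions over the genome. By locus the share was 47.4% (24.4 to 71.1%) of 19 regions at Foxa2, 30% (11.9 to 54.3%) of 20 at Insm1 and 12.5% (1.6 to 38.3%) of 16 at Neurod1.

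None of the 11679 tiles of 220 kb (0.00%) held 9 or more regions with all 3 factors, and the highest count was 8. Tiles can cut through a cluster, so windows of 220 kb in steps of 10 kb were also counted, a setting chosen after seeing the data. The highest count among 256748 such windows was 9, the number at the Foxa2 locus. It was reached in 23 windows, of which 13 overlapped the Foxa2 window and 10 lay elsewhere, on 4 chromosomes. The 6 regions of the Insm1 window were matched in 0.218% of tiles and the 2 of the Neurod1 window in 12.9%.

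**Figure D2:**
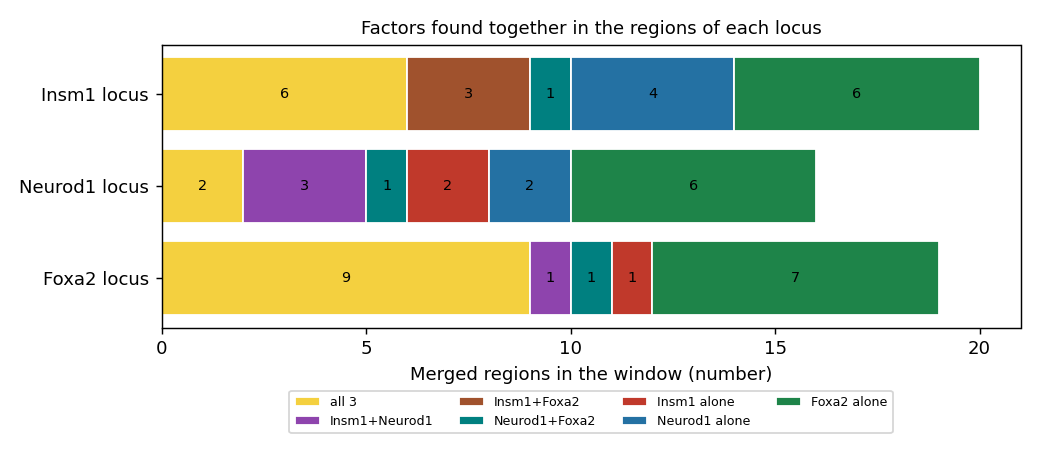
Merged regions in each window (horizontal axis, number) by the factors whose sites they hold. Regions with all 3 factors number 6, 2 and 9 at the Insm1, Neurod1 and Foxa2 loci, and regions with Foxa2 alone number 6, 6 and 7.

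The combinations of factors varied between the loci. At the Insm1 locus no Insm1 site was alone: all 9 overlapped a Foxa2 site (100%, 66.4 to 100%), compared with 56.2% of the whole Insm1 list, and 6 of 9 overlapped a Neurod1 site, compared with 55.0%. At the Neurod1 locus 2 of 7 Insm1 sites overlapped a Foxa2 site (28.6%, 3.7 to 71%) and 5 of 7 a Neurod1 site (71.4%, 29 to 96.3%). At the Foxa2 locus 9 of 11 overlapped a Foxa2 site (81.8%, 48.2 to 97.7%) and 10 of 11 a Neurod1 site (90.9%, 58.7 to 99.8%). The difference between loci was not tested.

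Neurod1 sites were most often shared in the window of the Foxa2 locus. There 10 of 11 overlapped an Insm1 site and 10 of 11 a Foxa2 site (each 90.9%, 58.7 to 99.8%), compared with 65.7% and 55.9% of the Neurod1 list. At the Neurod1 locus 5 of 8 Neurod1 sites overlapped Insm1 and 3 of 8 Foxa2, and at the Insm1 locus 6 of 11 overlapped Insm1 and 7 of 11 Foxa2. Foxa2 sites overlapped neither partner in 19 of 42 cases (45.2%, 29.8 to 61.3%), compared with 59.8% of the Foxa2 list. Over the 3 windows 20 of 42 overlapped Insm1 and 20 of 42 Neurod1 (each 47.6%, 32 to 63.6%), compared with 34.6% and 28.8% of the Foxa2 list.

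At all 3 loci most sites of each factor lay on the same side of the gene. How often other densely occupied windows are as uneven was not counted. At the Insm1 locus 7 of 9 Insm1, 8 of 11 Neurod1 and 13 of 16 Foxa2 sites lay at higher coordinates, on the side of Ralgapa2. At the Neurod1 locus 6 of 7, 7 of 8 and 7 of 9 lay at lower coordinates, and at the Foxa2 locus 10 of 11, 11 of 11 and 15 of 17 did. The Foxa2 window reaches farther below its gene position (120 kb) than above it (100 kb). Its regions at -115.9, -112.3 and -109.4 kb lie in that extra stretch. Neurod1 and Foxa2 are on the minus strand, so that lower coordinates lie downstream of the gene. Between neighbouring regions the longest gap was 40.2 kb at the Foxa2 locus, above the gene from 147874423 to 147914585, and 32.6 kb at the Insm1 locus, from 146047922 to 146080555. No site lay in the lowest 64.2 kb of the Insm1 window or in the highest 55.2 kb of the Foxa2 window.

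**Figure D3:**
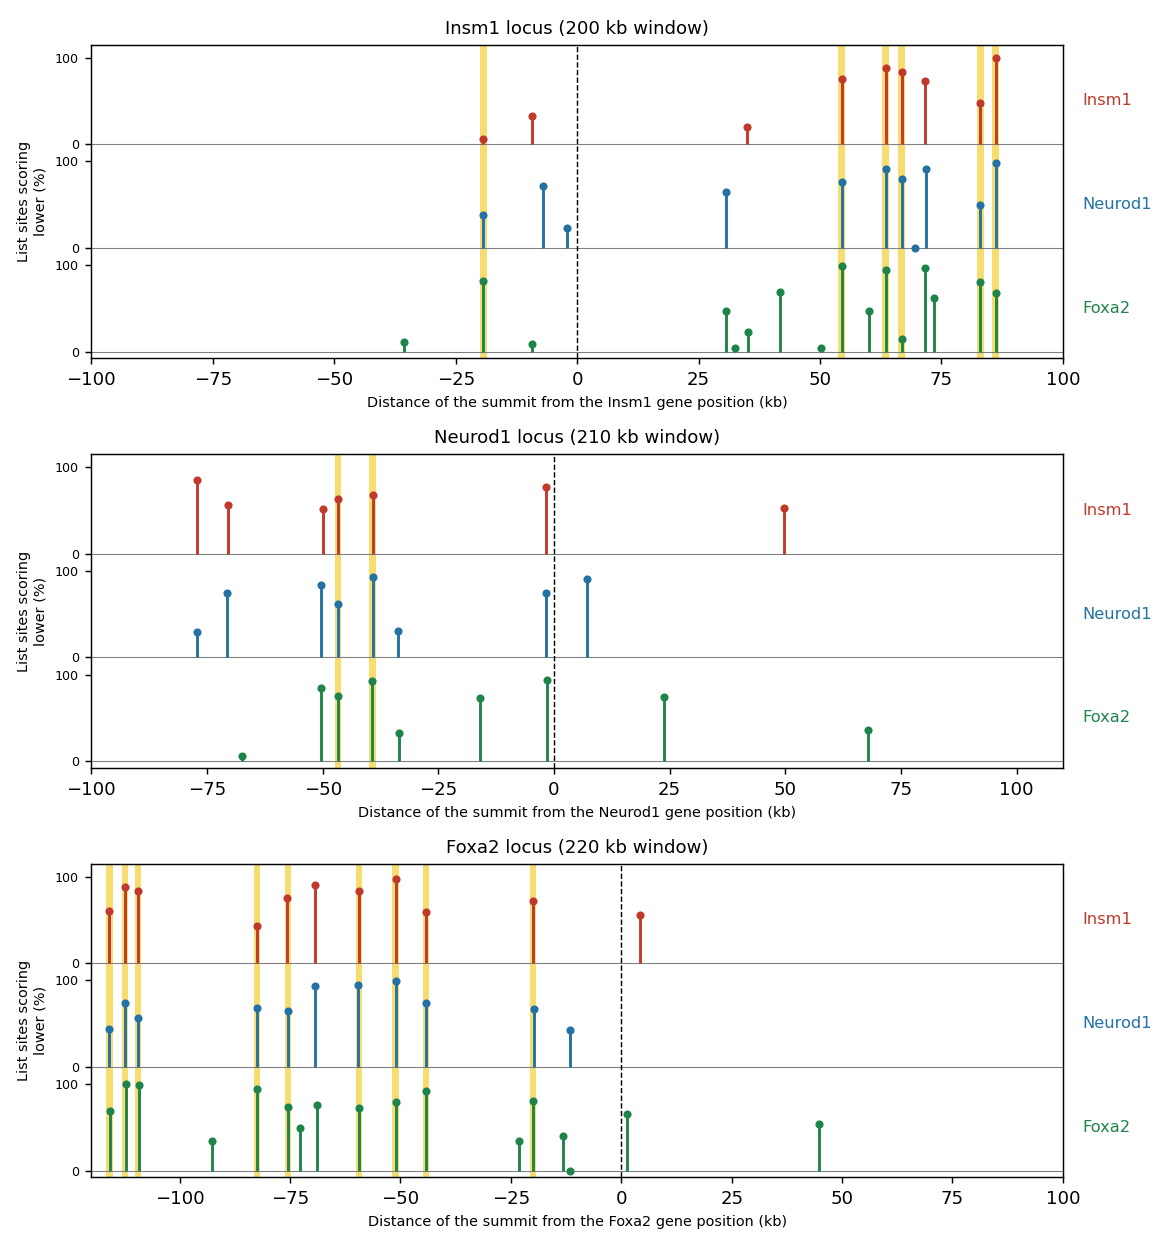
Sites of the 3 factors at the 3 loci, by distance of the summit from the gene position (horizontal axis, kb; dashed line at 0), with the height giving the percentage of sites in the factor's own list that score lower. Yellow bands mark the 17 regions with all 3 factors, which lie above the gene at Insm1 except for 1 at -19.3 kb, and below it at Neurod1 and Foxa2.

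Pooled over the 3 loci, the site density near the genes was close to that of the windows as a whole, but by locus it varied. Within 10 kb of the 3 positions there were 10 sites in 60 kb, or 166.7 per Mb over the 3 lists, compared with 157.1 per Mb in the windows and 23.5 per Mb over the genome. By locus these were 4 sites in 20 kb at Insm1, 4 at Neurod1 and 2 at Foxa2, where the whole windows held 36 sites in 200 kb, 24 in 210 kb and 39 in 220 kb. Per Mb this was 200, 200 and 100 near the genes, compared with 180, 114.3 and 177.3 in the windows, from few sites. The gene positions are exact only to 5 kb, and some sites lie within that error of the 10 kb limit. Examples are those at -9.3 and -7 kb from Insm1 and at -11.6 kb from Foxa2. The counts by locus, and their order beside the windows, could thus change with the true positions. None of the 17 regions with all 3 factors lay within 10 kb of a position, in stretches that make up 60 of the 630 kb. Within 10 kb of the Insm1 position there were 2 Neurod1 sites and 1 site each of Insm1 and Foxa2. The nearest was a Neurod1 site at 146047791 to 146047922 (-2.1 kb, score 55, rank 10951 of 14607), in the lower part of its list. A stronger Neurod1 site lay at 146042948 to 146043048 (-7 kb, score 101, rank 4108). The Insm1 site nearest to the Insm1 gene was at 146040608 to 146040730 (-9.3 kb, score 109, rank 11655 of 17453) and coincided with a weak Foxa2 site (score 23, rank 25133 of 28379), the summits being 8 bp apart.

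The Neurod1 gene had the highest-ranked sites of each factor within 10 kb among the 3 loci. An Insm1 site (79288095 to 79288300, score 188, rank 4044) and a Neurod1 site (79288120 to 79288292, score 106, rank 3753) met at -1.8 kb with summits 3 bp apart. A Foxa2 site at 79288433 to 79288628 (-1.5 kb) began 133 bp beyond them, and its score of 192 (rank 1618) was the highest of the 9 Foxa2 sites in this window. The sites of the 3 factors thus lay beside each other without all overlapping. Neurod1 had a further site alone at 79296974 to 79297145 (7.1 kb, score 180, rank 1364).

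Near the Foxa2 gene, Foxa2 and Insm1 each had 1 site alone. The Foxa2 site at 147871272 to 147871467 (1.3 kb) had a score of 59 and ranked 9548, and the Insm1 site at 147874248 to 147874423 (4.3 kb) had a score of 139 and ranked 7614. No Neurod1 site lay within 10 kb, and the nearest, at 147858360 to 147858435 (-11.6 kb), had a score of 67 and ranked 8194. It overlapped a Foxa2 site (147858322 to 147858548) with a score of 19, the lowest score in the Foxa2 list.

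The 9 regions with all 3 factors at the Foxa2 locus spanned 96.3 kb, all below the gene. The one nearest to it lay at 147850068 to 147850260 (-19.9 kb), with scores of 171 for Insm1 (rank 4957), 93 for Neurod1 (rank 4751) and 91 for Foxa2 (rank 5495). Its 3 summits fell within 16 bp. All 3 sites were in the upper part of their lists, and none was among the strongest of the locus.

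Farther down, the region at 147825656 to 147825860 (-44.2 kb) had scores of 144 for Insm1, 105 for Neurod1 and 163 for Foxa2, with ranks of 7159, 3816 and 2173. The region at 147818754 to 147818961 (-51.1 kb) held the strongest Insm1 site (score 400, rank 518) and the strongest Neurod1 site (score 370, rank 189) of the locus, with a Foxa2 site of rank 5828 (score 87). The Neurod1 and Foxa2 summits there were at the same base pair, and the Insm1 summit was 14 bp away. The region at 147810431 to 147810743 (-59.4 kb) was similar in order, with ranks of 2771 for Insm1 (score 221), 730 for Neurod1 (score 232) and 7793 for Foxa2 (score 70).

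Next came 147794366 to 147794545 (-75.5 kb), with ranks of 4335, 5114 and 7206 and scores of 182, 89 and 74 for Insm1, Neurod1 and Foxa2, and 147787449 to 147787638 (-82.5 kb), with ranks of 9768, 4664 and 1521 and scores of 121, 94 and 199. At -82.5 kb the 3 summits fell within 9 bp of each other, the tightest of the 17 regions. Between these and the region at -59.4 kb, Insm1 (score 266, rank 1720) and Neurod1 (score 215, rank 909) met at 147800604 to 147800811 (-69.3 kb). A Foxa2 site (score 78, rank 6729) began 155 bp from it, the same kind of neighbouring sites as at the Neurod1 gene.

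The far end of the window held 3 regions within a few kilobases, among them those with the highest and the lowest Foxa2 scores of the 9. The region at 147757529 to 147757997 (-112.3 kb) had a Foxa2 score of 574, which ranked 114 of 28379 and was the highest Foxa2 score in any of the 3 windows. Its Insm1 site (score 245) ranked 2105 and its Neurod1 site (score 107) 3691. The region at 147760530 to 147760776 (-109.4 kb) had the next highest Foxa2 score (375, rank 383), with ranks of 2868 for Insm1 (score 218) and 6272 for Neurod1 (score 79). At 147753984 to 147754218 (-115.9 kb) the scores were 148, 68 and 64 and the ranks 6762, 7997 and 8675 for Insm1, Neurod1 and Foxa2. The strongest Foxa2 site and the strongest Insm1 and Neurod1 sites of this locus were thus in different regions.

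At the Insm1 locus 5 of the 6 regions with all 3 factors lay between 54.5 and 86.2 kb above the gene. The region at 146136073 to 146136339 (86.2 kb) held the strongest Insm1 site of the 3 windows (score 622, rank 115 of 17453) and the strongest Neurod1 site of this locus (score 357, rank 210 of 14607). Its Foxa2 site was of middling strength (score 62, rank 8988). The strongest Foxa2 site of the locus (score 348, rank 458) was in the region at 146104420 to 146104643 (54.5 kb), where Insm1 ranked 4199 (score 185) and Neurod1 3409 (score 112). In the region at 146113410 to 146113700 (63.5 kb) all 3 factors were high in their lists, with percentiles of 87.9, 91.7 and 94.6 and ranks of 2085 for Insm1 (score 246), 1192 for Neurod1 (score 190) and 1508 for Foxa2 (score 200).

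The other regions of this locus were uneven. At 146116718 to 146116986 (66.8 kb) Insm1 ranked 2868 (score 218) and Neurod1 2962 (score 121), while Foxa2 had a score of 25 and ranked 23527. The region at 146132827 to 146133051 (83 kb) had ranks of 9098, 7291 and 5495 and scores of 126, 72 and 91 for Insm1, Neurod1 and Foxa2. The single region below the gene, at 146030559 to 146030777 (-19.3 kb), joined a Foxa2 site of rank 5264 (score 94) to an Insm1 site of rank 16279 (score 83), near the bottom of the Insm1 list, and a Neurod1 site of rank 8775 (score 64). At 71.6 kb, strong Insm1 and Foxa2 sites (score 175, rank 4722, and score 262, rank 887) shared a region, and a strong Neurod1 site (score 186, rank 1268) began 113 bp from it.

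The Neurod1 locus had 2 regions with all 3 factors, both below the gene. The region at 79250625 to 79250990 (-39.2 kb) held the strongest Neurod1 site of the locus (score 200, rank 1077), an Insm1 site of rank 5512 (score 163) and a Foxa2 site of rank 2133 (score 165). The region at 79243187 to 79243639 (-46.7 kb) had ranks of 6390, 5521 and 6952 and scores of 152, 85 and 76 for Insm1, Neurod1 and Foxa2. The highest Insm1 score of the locus, 225 (rank 2639), belonged to a site of 63 bp at 79212781 to 79212844 (-77.2 kb), narrow for a list with a median width of 175 bp. It overlapped a Neurod1 site of 58 bp (score 58, rank 10120) and no Foxa2 site.

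**Figure D4:**
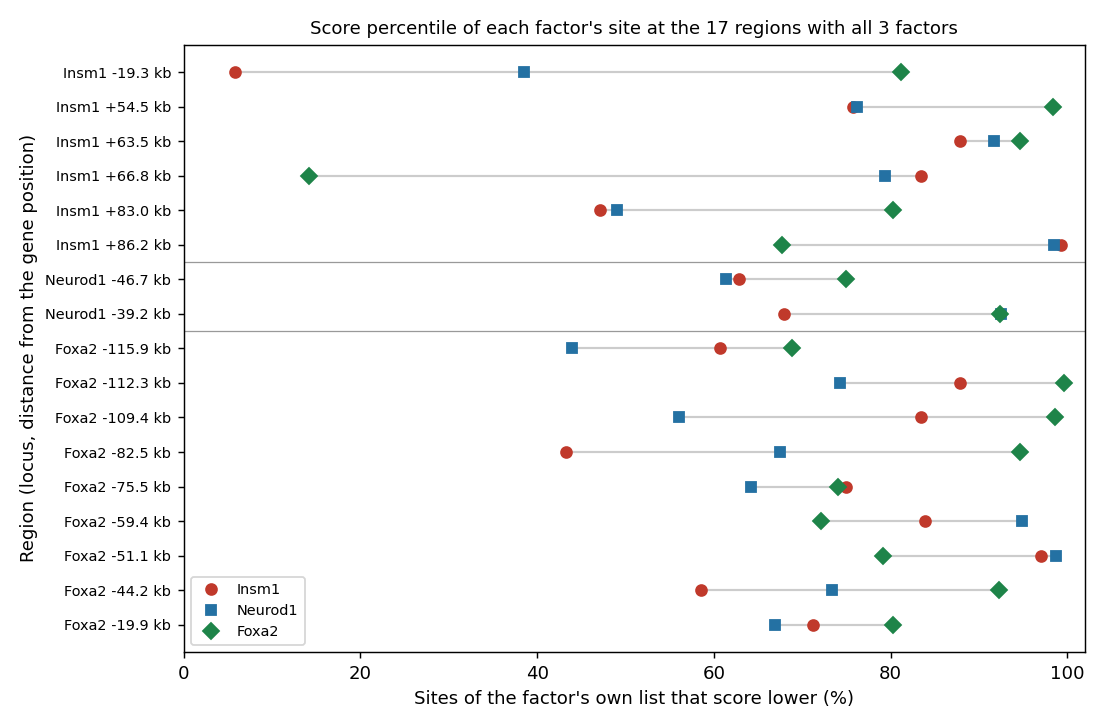
Each row is 1 of the 17 regions with all 3 factors, named by locus and distance from the gene position, and each point gives the percentage of sites in that factor's list that score lower than its site there (horizontal axis). Insm1 and Neurod1 points lie close together in several rows, such as 86.2 kb from Insm1 and -51.1 kb from Foxa2, where the Foxa2 point lies lower.

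Insm1 and Neurod1 sites tended to be strong in the same regions, at these loci as over the genome. Across the 17 regions Spearman's rho of the score percentiles was 0.74 for Insm1 and Neurod1, -0.08 for Insm1 and Foxa2 and -0.1 for Neurod1 and Foxa2. Over all 6665 regions with all 3 factors in the genome the values were 0.51, 0.34 and 0.25. These are descriptions across sites, which share libraries and local chromatin. With so few points neither the 0.74 nor the values near 0 show a difference from the genome, and none was tested. The Foxa2 site had the highest percentile of the 3 in 11 of the 17 regions (64.7%), against 48.4% over the genome. These percentiles come from lists of unlike length. Over the genome the sites in such regions had median percentiles of 78.4 for Foxa2, 70.1 for Insm1 and 64.2 for Neurod1. Whether the share differs from that of the genome was not tested.

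Taken over the 3 loci together, most sites of each factor were in the upper part of their list. The score was above the list's median for 22 of 27 Insm1 sites, compared with 49.3% of the list, and for 22 of 30 Neurod1 sites (49.9%). For Foxa2 it was so for 26 of 42 sites (49.4%), but at the Insm1 locus for 8 of 16, near the share of the list. The differences from the lists were not tested. Insm1 scores ran from 83 to 622 with a median of 171, Neurod1 scores from 46 to 370 with a median of 103, and Foxa2 scores from 19 to 574 with a median of 63.5, where the lists' medians were 130, 72 and 42. At the Neurod1 locus 7 of 7 Insm1 sites scored above the list's median, within a narrow range of 132 to 225. At the Insm1 locus Insm1 scores were the most spread, from 83 to 622, and 5 of 9 were above it.

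Pooled over the 3 loci, Foxa2 sites in regions with all 3 factors had a higher median percentile than its other sites, while for Neurod1 the medians were close. Foxa2 sites in the 17 regions with all 3 factors had a median percentile of 80.3, and the 25 others at these loci 46.6, compared with 78.4 and 41.7 over the genome. At the Insm1, Neurod1 and Foxa2 loci the Foxa2 medians were 80.8, 83.7 and 80.3 in such regions and 34.5, 73 and 44.6 outside them. The value of 83.7 rests on 2 sites. For Insm1 sites at the 3 loci together the medians were 74.9 for 17 sites and 56.1 for 10, compared with 70.1 and 37.3. For Neurod1 they were 73.4 for 17 sites and 71.5 for 13, compared with 64.2 and 37.1. Neurod1 sites outside such regions included the sites 7.1 kb from Neurod1 and 71.9 kb from Insm1, with percentiles of 90.6 and 91.2. The difference from the genome was not tested.

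Summits in shared regions lay at distances like those over the genome. The median distance was 34 bp between Insm1 and Neurod1 in 21 regions (3 to 112 bp), 38.5 bp between Insm1 and Foxa2 in 20 (2 to 118 bp) and 44 bp between Neurod1 and Foxa2 in 20 (0 to 130 bp). Over the genome the medians were 31, 40 and 41 bp. Sites this narrow can overlap only if their summits are close.

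The lower edge of the Foxa2 window did not cut through its cluster. The outermost region inside lay 4.1 kb from the lower edge and held all 3 factors, the nearest outside was a Foxa2 site alone at 47.5 kb, and none of the 4 regions in the 100 kb below held all 3 factors. Above its upper edge the nearest was a Foxa2 site alone at 94.6 kb, and 1 of the 2 regions counted in the 100 kb there held all 3 factors. At the upper edge of the Insm1 window a Neurod1 site alone lay 0.8 kb outside and none of the 10 regions in the 100 kb above held all 3, while 3 of 8 regions in the 100 kb below the lower edge did. At the Neurod1 locus the nearest outside were a Foxa2 site at 60.8 kb below and a region of Insm1 and Foxa2 at 23.9 kb above, and no region within 100 kb on either side held all 3 factors.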

How the data were processed

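ChIP-seq sites of Insm1, Neurod1 and Foxa2 were deposited as 1 list per factor without a header. The submitters' processing notes name the mm9 build and the tools MACS 1.4, Bowtie 0.12.7 and CASAVA. Their settings, the control, the threshold and the use of repeats (the design text counts 6 samples) were not given in the sources used here. Each line of the deposited lists gives chromosome, start, end, an inner position read as the summit, and a whole number treated as the authors' score of unknown definition. Coordinates are printed as deposited.

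Ranks count from the highest score of a list, and percentiles give the share of the list that scores lower. Sites overlapping by at least 1 bp were merged into regions. Tiles of each window's length were counted without a test. Intervals, where given beside a share, are 95% Clopper-Pearson intervals. Sites were named by a written rule: every region with all 3 factors, and for each factor and window the highest-scoring site, the nearest to the gene and all within 10 kb. Sites at 71.6 and 71.9 kb from Insm1 and at -69.3 kb from Foxa2 were named after their values were seen. The windows, motifs and comparisons were chosen with earlier results of these data known. Site sequences are not given, since no mm9 genome was used here. The counting was tested on simulated lists. Python 3.11.15, numpy 2.4.6, pandas 2.3.3, scipy 1.17.1 and matplotlib 3.10.9 were used.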

Additional observations from a re-analysis of the deposited data

How the results depend on the processing

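Over 33 results and 87 alternative values, 63 stayed within 1.5 times the main count or within the interval of a share, and 24 moved. The central 50% of each window, smaller by construction, held 3 Insm1, 4 Neurod1 and 7 Foxa2 sites at the Insm1 locus, 4 Insm1 and 5 Neurod1 sites at the Neurod1 locus, and 5, 5 and 9 sites at the Foxa2 locus. Keeping only sites above the median score of their list left, by construction, 49.3%, 49.9% and 49.4% of the Insm1, Neurod1 and Foxa2 lists. The Insm1 locus then held 5, 7 and 8 sites, 12 regions and 3 regions with all 3 factors. Of all regions in the genome, 14.9% held all 3 factors under this setting, against 16.9% in the main one. With sites widened by 500 bp the Neurod1 locus held 4 regions with all 3 factors instead of 2, by joining neighbouring sites. The genome's share of regions with all 3 factors was then 19.6%. The Foxa2 locus held between 7 and 10 such regions under the alternatives run.

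Among tiles of chromosome 2 alone, the counts of the Insm1 window were reached in 0.672% of tiles for Insm1, 0.224% for Neurod1, 0.224% for Foxa2 and 0.448% for regions with all 3 factors. For the Neurod1 window the shares were 2.94% for Insm1, 4% for Foxa2 and 14.9% for regions with all 3 factors, and for the Foxa2 window 0.37% for Insm1 and 0.123% for Foxa2. The shares of the Insm1 window rest on 6, 2, 2 and 4 of 893 tiles, and those of the Foxa2 window on 3 and 1 of 811. Tiles that overlap the loci themselves were not left out. Shifting the tiles by 50% of their length gave 0.103% for Insm1 at the Foxa2 window. The cause of these shifts was not tested. The depth of the libraries is unknown, and no replicate limits what can be said of any single site.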
